A study of Capra hircus with 3 samples.

Results

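The muscle miRNAs of Shanbei White cashmere goat skin were followed across the hair cycle, from anagen (growth of the follicle) through catagen (regression) to telogen (rest). The miRNAs asked for were 6, namely miR-1, miR-206, miR-133a, miR-133b, miR-208b and miR-499. A tag, which is a distinct read sequence with its read count, was taken as a member when its first 18 nt equalled those of a tag that the study's annotation gives for one of these precursors, or of a mature sequence in its table of qPCR primers. A sequence was held for 4 of the 6 miRNAs, and miR-208b and miR-499 were not analysed here. The rule found 1000 distinct tags among the 4043974 of the series, with 181 (anagen), 786 (catagen) and 619 (telogen). These formed 7 of the 452 miRNA features counted, where a feature is 1 arm of a miRNA or of miRNAs that share an 18-nt start.

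Each stage was 1 small RNA library, and each library was made from the pooled skin RNA of 10 adult goats of both sexes, with tissue cut from the side of the body. No treatment or genotype separated the stages. Because each stage was a single pool, no difference given here has a replicate check, and the exact tests compare libraries and not conditions. The anagen library held 15997828 clean reads, the catagen library 18111912 and the telogen library 27016012. Levels are given as TPM, the unit of the study, in which the reads of a feature are divided by the clean reads of the library and scaled to 1000000. Intervals are exact 95% intervals, except where named as approximate, and cover counting error only, since each stage had 1 library. PCR copies of 1 molecule are counted as separate reads, so the intervals may be too narrow even for that error.

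A miRNA is a short RNA that pairs with messenger RNAs, mainly through its seed (bases 2 to 8), and lowers their translation or stability. miR-1, miR-206 and the miR-133 pair are the classical striated muscle miRNAs. They are made from paired genes, in which a member of the miR-1 type lies beside a member of the miR-133 type, and they are switched on by the muscle transcription factors. miR-1 and miR-133a are known from heart and skeletal muscle, while miR-206 and miR-133b are known from skeletal muscle. Hair-bearing skin holds the arrector pili, which is smooth muscle, and in many mammals it lies on a sheet of striated cutaneous muscle.

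Tags of the guide arms are given here because the shared seeds and the few bases that set the members apart decide how reads can be assigned. The first 3 are the most read tag of each arm, and the other 2 are 22-nt tags of the earlier start of miR-133, which end at the base that separates miR-133a from miR-133b. The sequences are from the deposited tags, read 5′ to 3′, and the capitals mark the seed.
miR-1-3p: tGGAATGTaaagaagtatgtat
miR-206-3p: tGGAATGTaaggaagtgtgtgg
miR-133a-3p, most read start: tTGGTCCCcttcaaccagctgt
miR-133a-3p, start 1 base earlier: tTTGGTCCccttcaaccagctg
miR-133b-3p, start 1 base earlier: tTTGGTCCccttcaaccagcta
miR-1 and miR-206 had the same seed and differed at 4 bases, A11G, A17G, A21G and T22G, counted from 1 at the 5′ end with the miR-1 base first. The first 2 of these differences lie within the 18 nt of the rule, so reads of the pair could be told apart. miR-133a and miR-133b differed by the single change G22A, past the 18 nt, and were therefore counted together as miR-133a/miR-133b. In the goat gene table of RefSeq (assembly ARS1.2, used for names and order alone) MIR1 was the direct neighbour of MIR133A, and MIR206 that of MIR133B.

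The 3 guide arms shared 1 order of levels, with catagen above telogen and telogen above anagen. miR-1-3p, which represses growth and signalling genes in differentiating muscle, had 62362 reads (anagen), 1337495 (catagen) and 540309 (telogen). These were levels of 3898 TPM (95% interval 3868 to 3929), 73846 TPM (73721 to 73971) and 19999.6 TPM (19946 to 20053). It ranked 12 among the features counted in anagen and 4 in catagen and telogen. The list of tags used is shortened and lacks the main tag of some miRNAs, and some features join several miRNAs. For example, let-7g had 2, 8 and 28 reads here but is among the most read miRNAs in the paper. The ranks therefore do not hold for all miRNAs. miR-206-3p, the skeletal muscle relative of miR-1, had 3067, 80420 and 33398 reads, or 192 TPM (185 to 199), 4440 TPM (4410 to 4471) and 1236 TPM (1223 to 1250). miR-133a/miR-133b-3p, known for its part in the proliferation of myoblasts, had 423, 8966 and 4480 reads, or 26.4 TPM (24.0 to 29.1), 495 TPM (485 to 505) and 166 TPM (161 to 171). The intervals of the stages did not overlap for any of the 3 arms, but at this depth small differences also exceed counting error. For example, miR-140 had 4353 TPM in anagen and 4901 TPM in catagen (Audic and Claverie exact test, p = 1.21e-121). The members together took up 0.412% of all clean reads from anagen skin, 7.88% from catagen skin and 2.14% from telogen skin. In bulk skin, fewer muscle cells and less RNA per cell cannot be told apart.

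**Figure D1:**
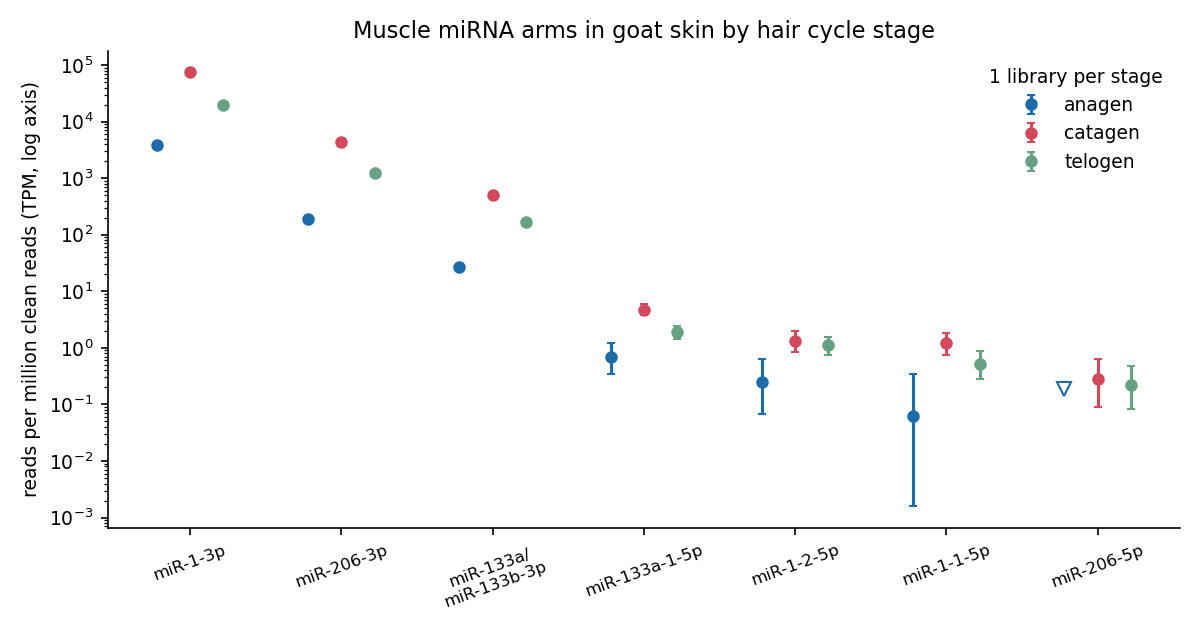
Levels of the 7 arms in the anagen (blue), catagen (red) and telogen (green) libraries, in TPM on a log axis, with exact 95% counting intervals and 1 library per stage. The open triangle is the limit of 3 reads where no read was found (0.188 TPM), and the 3 guide arms on the left are lowest in anagen and highest in catagen.

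The 3 guide arms had like ratios between anagen and catagen. For anagen over catagen the log2 ratio of TPM was -4.24 (95% interval -4.26 to -4.23) for miR-1-3p, -4.53 (-4.59 to -4.48) for miR-206-3p and -4.23 (-4.37 to -4.09) for miR-133a/miR-133b-3p. This put miR-1-3p in anagen at 5.28% of its catagen level, miR-206-3p at 4.32% and miR-133a/miR-133b-3p at 5.34%. A feature was called when its log2 ratio was beyond 1 in either direction and the Audic and Claverie exact test, two-sided, gave p under 0.01. All 3 guide arms were called lower in anagen, where 22.2% of the 293 features tested were called lower. The median log2 ratio over all features tested was -0.41. With size factors from the median of ratios that median moved to -0.04, the calls changed from 18 higher and 65 lower to 27 higher and 29 lower, and the ratio of miR-1-3p was -3.87.

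For anagen over telogen the log2 ratios were -2.36 (-2.37 to -2.35) for miR-1-3p, -2.69 (-2.74 to -2.64) for miR-206-3p and -2.65 (-2.80 to -2.50) for miR-133a/miR-133b-3p. The 3 arms were called lower in anagen, against 20.3% of the 291 features tested. The median of all features tested was -0.30. In this pair the calls were 16 higher and 59 lower, and 27 higher and 42 lower with the size factors.

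For catagen over telogen the log2 ratios were 1.88 (1.88 to 1.89) for miR-1-3p, 1.84 (1.83 to 1.86) for miR-206-3p and 1.58 (1.53 to 1.63) for miR-133a/miR-133b-3p. All were called higher in catagen, where 7.51% of the 293 features tested were called higher, and the median over those features was 0.11. In the exact test of edgeR with the biological coefficient of variation set to 0.4, the 3 arms kept their calls in both anagen pairs (p = 7.65e-06 and 0.00697 for miR-1-3p), but none of them was called for catagen over telogen (p = 0.0284 for miR-1-3p, 0.0317 for miR-206-3p and 0.0642 for miR-133a/miR-133b-3p). At this setting 6 of the 293 features tested were called lower for anagen over catagen and 13 of 291 for anagen over telogen. For catagen over telogen 2 of 293 were called higher. The 3 pairs of stages share their libraries, so their ratios are not separate evidence.

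The proportions among the members changed less than their levels. Per 1000 reads of miR-1-3p the anagen library had 49.2 reads of miR-206-3p, the catagen library 60.1 and the telogen library 61.8. The log2 ratio for anagen over catagen was 0.29 lower for miR-206-3p than for miR-1-3p, a difference of -0.29 (95% interval -0.34 to -0.24). The intervals of such differences are approximate, by the normal method of Woolf. Reads of miR-133a/miR-133b-3p numbered 6.78, 6.70 and 8.29 per 1000 reads of miR-1-3p. Its ratio for anagen over catagen differed from that of miR-1-3p by 0.02 (-0.12 to 0.16), an interval that includes no difference, and its ratio for catagen over telogen by -0.31 (-0.36 to -0.25).

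The passenger arms, which are the 5p arms of these hairpins and are mostly degraded when the guide is loaded, are shown because they tell the genes apart where the guide arms do not. The seed is again in capitals.
miR-133a-1-5p: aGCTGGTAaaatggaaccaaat
miR-1-1-5p: aCATACTTctttatgtgcccat
miR-1-2-5p: aCATACTTctttatgtacccat
miR-206-5p: aCATGCTTctttatatccccat
The genes mir-1-1 and mir-1-2 give the same guide arm, but their 5p arms differed by the single change G17A, with the miR-1-1-5p base first. miR-133a-1-5p had 11 reads (anagen), 86 (catagen) and 51 (telogen), or 0.688 TPM (0.343 to 1.23), 4.75 TPM (3.80 to 5.86) and 1.89 TPM (1.41 to 2.48). Its log2 ratio was -2.79 (-3.84 to -1.88) for anagen over catagen, -1.46 (-2.55 to -0.50) for anagen over telogen and 1.33 (0.81 to 1.86) for catagen over telogen, and it was called in each pair (Audic and Claverie exact test, p = 1.27e-13, 0.00145 and 9.49e-08). To be tested, a feature had to reach 1 TPM in a library of the pair. In both anagen pairs this arm did so only through the other stage, which fixed its direction in advance. Its levels stood in the order of its guide arm.

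The 5p arms of the pair of miR-1 genes were both found. miR-1-2-5p had 4 reads (anagen), 24 (catagen) and 30 (telogen). Its log2 ratio for anagen over catagen was -2.41 (-4.39 to -0.86), and that for catagen over telogen was 0.25 (-0.58 to 1.08), an interval that includes no difference (exact test, p = 0.502). miR-1-1-5p had 1 read (anagen), 22 reads (catagen) and 14 reads (telogen), with a log2 ratio of -4.28 (-9.65 to -1.65) for anagen over catagen. Its ratio for catagen over telogen was 1.23 (0.20 to 2.31) and was not called (exact test, p = 0.0112). miR-206-5p had 0 reads in anagen, where a floor of 3 reads in place of an interval puts the limit at 0.188 TPM, 5 in catagen and 6 in telogen, so no difference was detectable at this depth.

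Of the 7 arms, 6 reached 1 TPM in a library of the anagen and catagen pair and were tested, 5 for anagen and telogen and 6 for catagen and telogen. No 5p arm reached that minimum in anagen. Each one tested against anagen passed only through the other stage, so its direction was fixed in advance, though its call was not. The same held for miR-1-1-5p in catagen against telogen, where its telogen level was 0.518 TPM. Per 1000 guide reads, miR-133a-1-5p had 26.0 reads (anagen), 9.59 reads (catagen) and 11.4 reads (telogen), and either miR-1 passenger arm had at most 0.0641 reads in any library. The passenger of miR-133a was thus a far larger share of its guide than those of miR-1 and miR-206 in each library that held reads of both.

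Reads that reach the base that differs gave separate values for miR-133a and miR-133b. They are shown with this base in capitals.
miR-133a-3p: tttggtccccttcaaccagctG
miR-133b-3p: tttggtccccttcaaccagctA
The miR-133a base was carried by 331 reads of miR-133a/miR-133b-3p from anagen (78.3%), 7862 from catagen (87.7%) and 3860 from telogen (86.2%). The miR-133b base was carried by 4 reads from anagen (0.946%, 95% interval 0.258 to 2.40), 460 from catagen (5.13%, 4.68 to 5.61) and 210 from telogen (4.69%, 4.09 to 5.35). Levels of miR-133b by this base were 0.250 TPM, 25.4 TPM and 7.77 TPM. Most of the remaining reads ended before the base, with 20.1% (anagen), 6.38% (catagen) and 8.68% (telogen) of the reads of the arm ending there or differing earlier.

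By the base that differs, miR-133b had log2 ratios of -6.67 (-8.55 to -5.30) for anagen over catagen and -4.96 (-6.85 to -3.58) for anagen over telogen, both resting on 4 reads in anagen, and 1.71 (1.47 to 1.95) for catagen over telogen. For miR-133a they were -4.39 (-4.55 to -4.23), -2.79 (-2.95 to -2.63) and 1.60 (1.55 to 1.66). The study's annotation also names short tags that end before this base as miR-133b. Of the reads on tags it lists for miR-133b, 4 of 89 (anagen), 168 of 723 (catagen) and 87 of 459 (telogen) carried the miR-133b base. When these listed tags were counted as miR-133b, its log2 ratios were -2.84 (-3.18 to -2.52), -1.61 (-1.95 to -1.28) and 1.23 (1.06 to 1.40). The choice thus moved the value of miR-133b by more than the intervals, while miR-133a moved to -4.23, -2.61 and 1.61.

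The 5′ starts of the guide arms were also compared, since a shifted start moves the seed. miR-133a/miR-133b-3p had a mixed start, as printed above. The later start held 56.0% of its anagen reads (51.2 to 60.8), 57.1% of its catagen reads (56.1 to 58.1) and 56.4% of its telogen reads (55.0 to 57.9), and the earlier start 39.7%, 39.2% and 40.2%. These shares differed by less than the intervals between the stages. miR-1-3p and miR-206-3p had nearly uniform starts, with at least 99.8% of the reads of either arm in each library at the main start. Reads of miR-1-3p that began 1 base later were few, at 65 from anagen (0.104%, 0.0805 to 0.133), 302 from catagen (0.0226%, 0.0201 to 0.0253) and 14 from telogen (0.00259%, 0.00142 to 0.00435). The same later start of miR-206-3p was found on 4, 19 and 1 reads (0.130%, 0.0236% and 0.00299%).

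The 3′ ends differed more. Reads of 21 nt or shorter made up 7.62% of anagen miR-1-3p (95% interval 7.41 to 7.83), 3.15% of catagen miR-1-3p (3.12 to 3.18) and 4.81% of telogen miR-1-3p (4.75 to 4.87). For miR-206-3p the shares were 33.1% (31.4 to 34.8), 8.69% (8.50 to 8.89) and 12.1% (11.7 to 12.4). For miR-133a/miR-133b-3p they were 31.7% (27.3 to 36.3), 11.4% (10.7 to 12.0) and 14.8% (13.7 to 15.8). Anagen thus had the highest share of short reads for all 3 arms. Reads of 23 nt or longer were correspondingly fewer, at 9.72% of miR-206-3p in anagen (8.69 to 10.8) against 28.9% in catagen (28.6 to 29.2) and 27.2% in telogen (26.7 to 27.6).

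Other miRNAs showed a change of the same kind. Over the 152 other features with at least 100 reads in each library, the median share of reads of 21 nt or shorter was 25.6% (anagen), 18.1% (catagen) and 20.3% (telogen), with anagen above catagen for 116 of them. The share of miR-206-3p was 24.4 percentage points higher in anagen than in catagen, and 23 of the 152 had a larger difference. That of miR-133a/miR-133b-3p was 20.3 points higher, exceeded by 26, and that of miR-1-3p was 4.47 points higher, exceeded by 77, with a median over the others of 4.62 points. Reads under 18 nt, which the authors removed, made up 3.38% (anagen), 2.66% (catagen) and 0.566% (telogen) of high-quality reads, and their part in these shares was not tested. Counting only tags of 21 nt or longer left the log2 ratios of anagen over catagen close to those above, at -4.26 for miR-1-3p, -4.61 for miR-206-3p and -4.40 for miR-133a/miR-133b-3p.

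**Figure D2:**
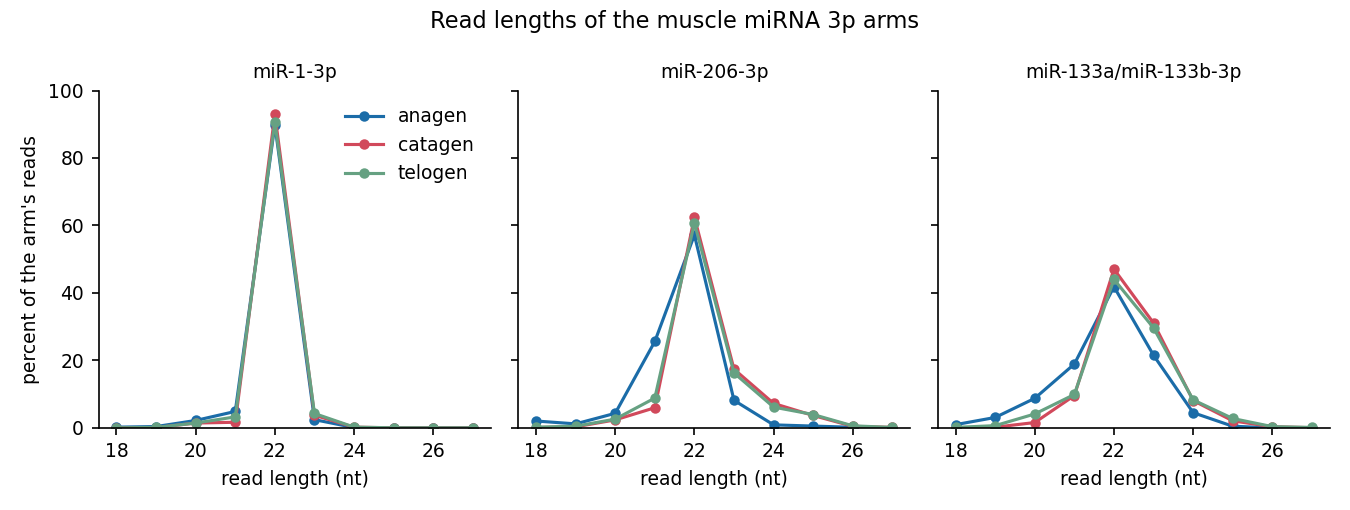
Share of each guide arm's reads (percent) against read length in nt, for anagen (blue), catagen (red) and telogen (green), 1 library each. The curves of miR-206-3p and miR-133a/miR-133b-3p lie further to the short side in anagen, while 22 nt holds about 90% of miR-1-3p in each stage (89.9%, 92.9% and 90.7%).

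Bases added to the main 22-nt tag were mostly T and A. For miR-1-3p a further T was on 17.7 (anagen), 30.3 (catagen) and 33.5 (telogen) reads per 1000 reads of the main tag, and a further A on 6.76, 8.13 and 9.58. For miR-206-3p a further T was on 113, 191 and 188 reads per 1000, and a further A on 51.2, 107 and 98.1. Added C and G together were under 1 per 100 reads of the main tag in each library for miR-1-3p and miR-206-3p. For miR-133a/miR-133b-3p a further T was on 53.4, 141 and 134 reads per 1000, and a further A on 0, 25.5 and 17.1. The study's annotation gives the T-extended tags of miR-1 and miR-206 and not the A-extended ones, and for miR-133 the A-extended tag and not the T-extended one. Without a hairpin sequence, a base copied from the gene and a base added later cannot be told apart.

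A second set of tags within miR-1-3p had another pattern across the stages. The seventh most read tag of miR-1-3p had 22 nt and differed from the main tag at 2 bases, at positions 20 and 22, and the study's annotation does not list it. It had 24 reads (anagen), 7449 (catagen) and 10140 (telogen), or 1.50 TPM, 411 TPM and 375 TPM. Its share of miR-1-3p was 0.0385% (0.0247 to 0.0573), 0.557% (0.544 to 0.570) and 1.88% (1.84 to 1.91). Tags with only the first of the changes had 6, 93 and 117 reads, and those with only the second 15, 46 and 46, so the changes mostly came together. The source of these reads was not tested.

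All tags with the changed base at position 20, shorter and longer ones included, had 53 reads (anagen), 10555 (catagen) and 15351 (telogen), or 3.31 TPM, 583 TPM and 568 TPM. Their log2 ratio for catagen over telogen was 0.04 (0.00058 to 0.07), against 1.96 (1.95 to 1.96) for the main tag. For anagen over catagen it was -7.46 (-7.88 to -7.07), against -4.33 (-4.34 to -4.32). Without these tags miR-1-3p had log2 ratios of -4.23 (-4.25 to -4.22) for anagen over catagen, -2.32 (-2.33 to -2.31) for anagen over telogen and 1.91 (1.91 to 1.92) for catagen over telogen and kept all 3 calls.

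**Figure D3:**
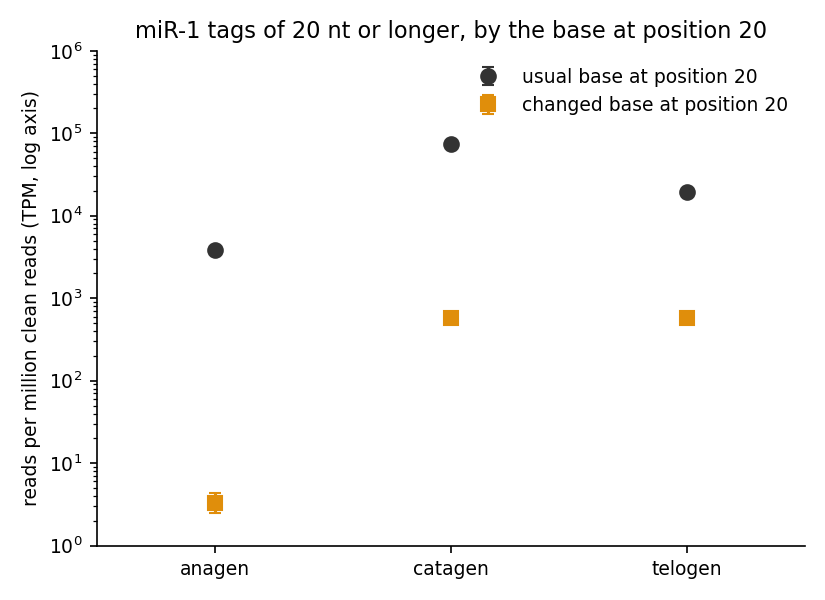
Levels of miR-1 tags of 20 nt or longer with the usual base (black circles) and with the changed base (orange squares) at position 20, in TPM on a log axis, with exact 95% counting intervals that are mostly smaller than the symbols. The usual tags fall from catagen to telogen, while the changed tags stand at 583 TPM and 568 TPM.

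The single changes T22C and T22A at the last base of the main miR-1-3p tag were common in every library. T22C was on 1663 reads (anagen), 19312 (catagen) and 11877 (telogen), and T22A on 1676, 15737 and 7422. Per 1000 reads of the main tag, T22C stood at 31.7 (anagen), 16.1 (catagen) and 25.9 (telogen). The other single changes counted at positions 19 to 21 stood at 0.552 per 1000 reads of the main tag or less. Reads with just 1 of the 2 bases that separate miR-1 from miR-206 within the first 18 nt were 21 (anagen), 190 (catagen) and 70 (telogen) for A11G, and 57, 354 and 129 for A17G. Set against the reads of miR-206-3p, these were at most 1.86% (anagen), 0.440% (catagen) and 0.386% (telogen).

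The 5 features outside the members whose log2 ratios to catagen lay closest to those of miR-1, by Euclidean distance over the 3 libraries and among 170 with at least 100 reads in catagen and in telogen, were miR-421, miR-6529, miR-152, miR-100 and miR-495. Their distances were 2.21, 2.79, 2.84, 3.15 and 3.20 on the log2 scale, against 0.29 for miR-206 and 0.31 for miR-133a/miR-133b. miR-421 had 7.50 TPM (anagen), 31.6 TPM (catagen) and 11.4 TPM (telogen). miR-152 had 1190 TPM, 3414 TPM and 1622 TPM. The lowest log2 ratio of anagen over catagen among these 170 features was -2.20.

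**Figure D4:**
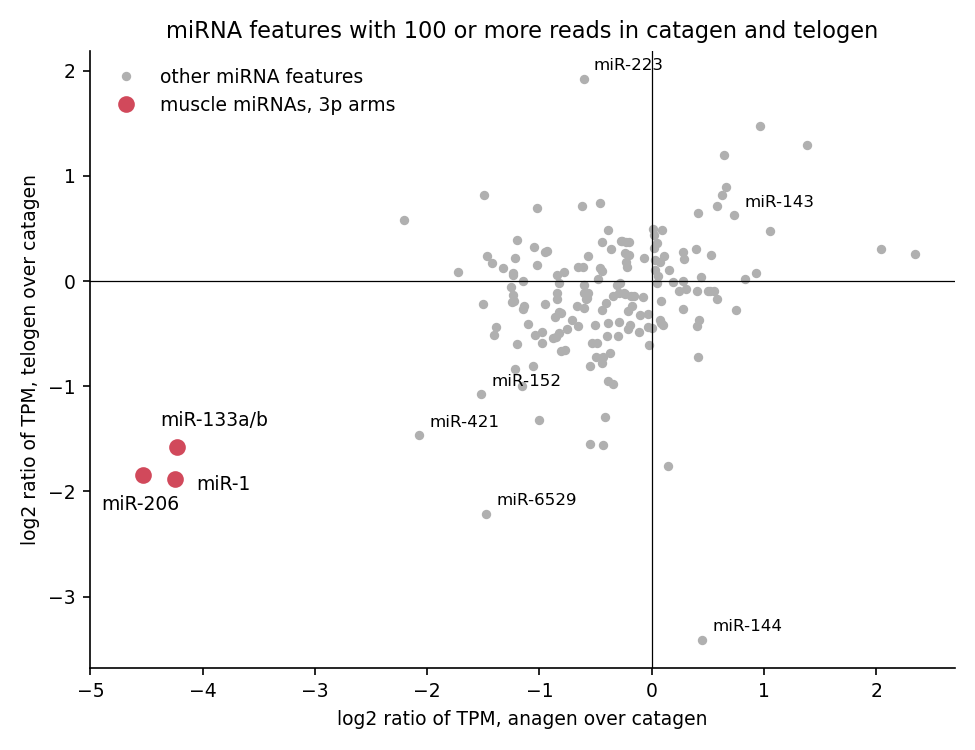
Log2 ratio of TPM for anagen over catagen (horizontal) and telogen over catagen (vertical) for the 3 guide arms (red) and 170 other features (grey) with at least 100 reads in catagen and in telogen. The muscle miRNAs lie together at the lower left, below -4 on the horizontal axis, where the lowest of the others is at -2.20.

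The other muscle-enriched miRNAs listed, each counted by its most read arm, had smaller ratios or too few reads. miR-208a, which lies within a cardiac myosin gene, had 1, 3 and 7 reads in anagen, catagen and telogen. No difference was detectable with so few reads (log2 ratio of anagen over catagen -1.41, -7.12 to 2.23). The shortened list lacks the main tag of some miRNAs, so a low count need not mean a low level. miR-378, counted with miR-378c and found in muscle and other tissues with high oxidative metabolism, had 582 TPM, 1053 TPM and 728 TPM, with a log2 ratio of -0.86 (-0.89 to -0.82) for anagen over catagen, and was not called in any pair. miR-486, which is made in both muscle and red blood cells, had 335 TPM, 779 TPM and 438 TPM, and was called lower in anagen than in catagen at a log2 ratio of -1.22 (-1.27 to -1.17) but in neither of the other pairs.

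miRNAs known from other cells of skin and blood were counted in the same libraries. The smooth muscle miRNAs miR-143 and miR-145 had 12422 TPM and 26.8 TPM in anagen, 7474 TPM and 40.1 TPM in catagen and 11542 TPM and 35.7 TPM in telogen, and neither was called in any pair. Of the red blood cell miRNAs, miR-451 had 863 TPM, 1266 TPM and 431 TPM and miR-144 had 104 TPM, 76.4 TPM and 7.18 TPM, and both were called higher in anagen and in catagen than in telogen. The call of miR-451 for anagen over telogen stood at the limit, with a log2 ratio of 1.00027 (0.96 to 1.04). The list also holds miR-486, which was lower in anagen than in telogen (335 TPM against 438 TPM) and was called in neither telogen pair. Of the epithelial list, 6 of 7 had a sequence (miR-200a, miR-200b, miR-141, miR-429, miR-205 and miR-183) and none was called in any pair, and the largest, miR-205, had 999.6 TPM, 1794 TPM and 1865 TPM. The dermal fibroblast miRNA miR-199a, counted with miR-199c, had 12903 TPM, 23455 TPM and 18480 TPM and was not called. miR-214, with 10, 27 and 44 reads, was called in the pair of anagen and telogen alone. In that pair it reached the minimum of 1 TPM only through telogen. The low counts of miR-214 and miR-200a may miss the main tag of these miRNAs. Of the immune list, 3 of 4 had a sequence, and miR-223 was called in both telogen pairs, with 10.2 TPM, 15.5 TPM and 58.9 TPM, while miR-142 and miR-155 were not called. The liver miRNA miR-122 was the other way round, with 24.8 TPM (anagen), 1.99 TPM (catagen) and 1.22 TPM (telogen), and was called higher in anagen than in each of the others. Over all features tested, 83 of 293 were called in either direction for anagen over catagen. The counts were 75 of 291 for anagen over telogen and 41 of 293 for catagen over telogen. The lists are too short for their calls to be set against these shares. The part of any of these cell types in the levels of the members was not tested.

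**Figure D5:**
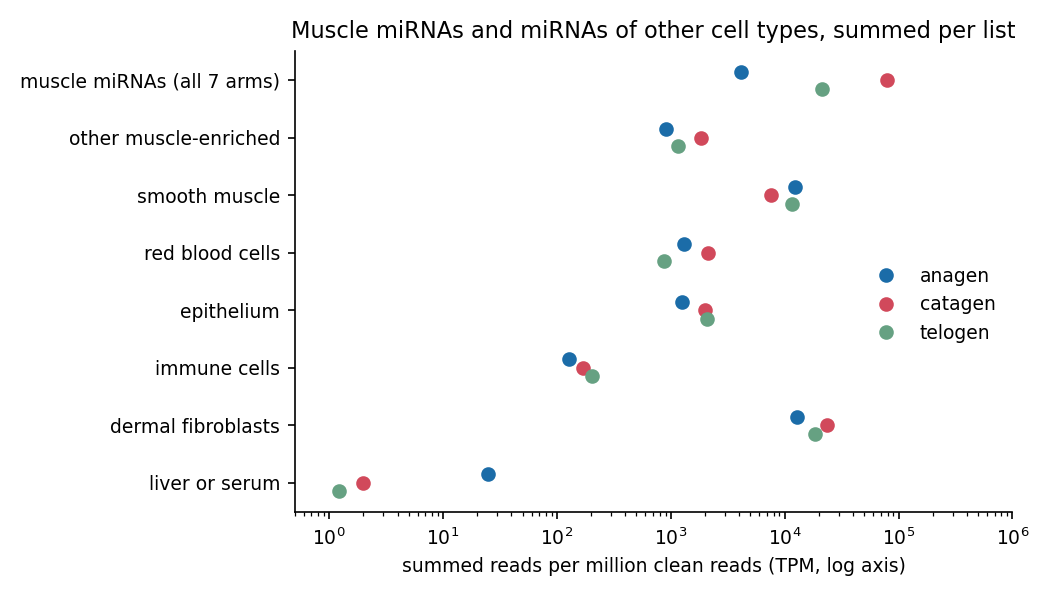
Summed levels of the 7 muscle miRNA arms and of each list of miRNAs of other cell types in anagen (blue), catagen (red) and telogen (green), in TPM on a log axis, 1 library per stage. The lists hold only the most read arm of each miRNA. The muscle sum spans a wider range between stages than the sums of smooth muscle (7514 TPM to 12449 TPM), epithelium (1244 TPM to 2069 TPM) or dermal fibroblasts (12903 TPM to 23456 TPM), while the liver miRNA miR-122 also has a wide range (1.22 TPM to 24.8 TPM).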

How the data were processed

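Small RNA of 18 to 30 nt was sequenced by the authors in 3 libraries, 1 per stage. The authors dropped reads of low quality, with poly(A), shorter than 18 nt or with faults in adapter or insert, and collapsed identical reads. The deposited values are counts of reads per tag, with no normalisation, alignment or genome build, and a deposited record gives the counts of reads removed per class. Tags were assigned by their first 18 nt. For miRNAs other than the members any 18 nt within a listed tag were allowed, since the list used here is shortened. Features under 1 TPM in both libraries were not tested, and 0 was set to 0.01 TPM. With 1 library per stage the quasi-likelihood test could not be fitted, so reads were compared by the Audic and Claverie exact test (Python 3.11.15, SciPy 1.17.1), with the exact test of edgeR 4.0.16 (R 4.3.3) as an alternative. The test was run on simulated counts that held counting error alone, with changes well beyond the log2 limit. Each changed feature of 100 reads or more was called (97, 117 and 114 in the 3 pairs), and 0 of 116, 112 and 120 unchanged ones were. The settings fixed this outcome, so it checks the code and says nothing of false calls between real libraries. Every member was named, as was every miRNA of the lists that had reads and the 5 features closest to miR-1. The members and lists were chosen with earlier results of these data known. Other scalings, tag choices, minimum levels and tests were tried.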

Additional observations from a re-analysis of the deposited data

How the results depend on the processing

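Over 9 alternatives of scaling and of the tags counted, the log2 ratio of all members together ranged from -4.37 to -3.88 for anagen over catagen, from -2.68 to -2.14 for anagen over telogen and from 1.59 to 1.97 for catagen over telogen, and kept its direction and its call. Of these, counting members by any 18 nt of a listed tag and leaving out the tags with the changed base at position 20 were chosen after seeing the data. Counting by any 18 nt gave the same values as the main count, so it was no separate check. Counting distinct tags in place of reads gave -2.10, -1.10 and 1.00 (0.999, not called), and 7, 6 and 9 called features in place of 83, 75 and 41. With at least 100 reads in both libraries 28, 22 and 16 features were called, since fewer were tested. With an assumed variation of 0.4 in the exact test of edgeR 9, 17 and 2 were called. Levels were also scaled to the reads of the miRNA features counted, which are not all miRNAs. This scaling moved every log2 ratio by -0.30 for anagen over telogen and -0.29 for catagen over telogen. The size factors moved the ratios by 0.38 for anagen over catagen. No paired analysis was possible because each stage had a single library. No comparison has a replicate, and the 5p arms and miR-133b in anagen rest on 11 reads or fewer.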
